A study of Homo sapiens with 18 samples.

Results

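The genes described are 10 polypeptide N-acetylgalactosaminyltransferases: GALNT1, GALNT2, GALNT3, GALNT4, GALNT5, GALNT6, GALNT7, GALNT10, GALNT12 and GALNT14. They are 10 of the 21357 genes with a probe set on the arrays, and 28 probe sets carry their names. GALNT3 was chosen by its array signal, which was lost in the clone 47C2, so its values are given as a description without a test, and the other 9 were taken as its family. The arrays came from HCT116, an established human colorectal carcinoma line, and from 8 clones of it that were engineered at IDH1 or IDH2, the NADP-dependent isocitrate dehydrogenases of the cytosol and of mitochondria. All clones carry 1 altered allele beside a wild-type one in their titles: 2C11 and 2H1 IDH1 R132H, 3A4 IDH1 R132C, 8G12 and 17H5 IDH2 R140Q, and 47C2 and 45G3 IDH2 R172K. The clone 16F8 was also targeted with IDH1 R132C, but it is labelled as not expressing that allele and as wild-type in its mRNA. It stands with the parental line as the wild-type group. No agent was added, and RNA was taken from all clones after 6 days of growth. The parental line and each of the 8 clones have 2 biological replicates, so 18 arrays were measured. The titles give no clone name for the parental line, which is counted here among the 9 clones for brevity. A comparison with parental thus also sets a single clone against a line that is not labelled as one. The title names the question, a link of IDH mutations with ZEB1, a repressor of epithelial genes, and with EMT, in which epithelial cells take on a mesenchymal programme.

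Enzymes of this family sit in the Golgi and start mucin-type O-glycosylation by placing N-acetylgalactosamine on serine or threonine, using UDP-GalNAc as the donor. Other enzymes then build the core structures and cap them with sialic acid, and in the gut the densest carriers of these chains are the mucins. GALNT1, GALNT2, GALNT3, GALNT5, GALNT6 and GALNT14 act on bare peptide, with GALNT3 and GALNT6 closely related to each other. GALNT7 and GALNT10 act on peptides that already carry a sugar, and GALNT4 and GALNT12 also use such substrates. GALNT3 is known for protecting the hormone FGF23 from cleavage, and GALNT12 for its expression in the colon.

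The start-site regions of GALNT3 and GALNT12 are shown because these members had lower signals in several clones in which ZEB1 was higher, and that of GALNT14 because it holds the same motif. ZEB1 is known to bind the E-box CACCTG, searched for here on both strands (CAGGTG on the other). RefSeq windows on GRCh38.p14, each of the 250 bases before a start site, were at hand for 7 of the 10 members, in 10 windows. The windows shown are chr2:165794248-165794497 on the minus strand for GALNT3, chr9:98807420-98807669 on the plus strand for GALNT12 and chr2:31138441-31138690 on the minus strand for GALNT14, 5′ to 3′ with the E-box in capitals.
GALNT3: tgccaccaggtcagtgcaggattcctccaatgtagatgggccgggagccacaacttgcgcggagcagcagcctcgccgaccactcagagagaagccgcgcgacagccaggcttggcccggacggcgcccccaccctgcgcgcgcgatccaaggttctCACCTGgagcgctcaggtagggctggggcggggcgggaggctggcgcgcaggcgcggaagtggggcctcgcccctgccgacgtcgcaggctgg
GALNT12: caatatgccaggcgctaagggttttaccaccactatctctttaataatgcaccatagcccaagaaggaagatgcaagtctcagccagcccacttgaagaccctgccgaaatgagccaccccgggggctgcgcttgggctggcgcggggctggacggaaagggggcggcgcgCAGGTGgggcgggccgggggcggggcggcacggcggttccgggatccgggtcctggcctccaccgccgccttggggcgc
GALNT14: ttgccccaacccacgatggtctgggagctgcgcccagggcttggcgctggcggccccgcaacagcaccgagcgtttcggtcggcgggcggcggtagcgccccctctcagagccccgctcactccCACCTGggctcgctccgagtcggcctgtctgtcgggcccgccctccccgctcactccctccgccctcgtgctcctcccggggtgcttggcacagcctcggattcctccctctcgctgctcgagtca
GALNT3 itself spans chr2:165747588-165794692 and GALNT12 chr9:98807670-98850081. The GALNT3 window thus lies inside the span of the gene and precedes an internal start site. No window before the outer 5′ end of GALNT3 was at hand, so that region was not searched. Each of the 3 windows holds 1 match. No match lay in the second window of GALNT14, in the 3 windows of GALNT1 or in those of GALNT2, GALNT7 and GALNT10. The motif occurs in 17.49% of the 35116 windows of this kind in RefSeq, and the arrays do not measure binding. ZEB1 was higher than in parental in 2C11, 2H1, 3A4, 47C2 and 45G3. Among these clones GALNT14 lay above parental in 47C2 (log2 difference 0.64), 2C11 (0.41), 3A4 (0.36) and 45G3 (0.16), and below it in 2H1 (-0.55). GALNT3 also lay below parental in 8G12 (-1.19), 17H5 (-1.66) and 16F8 (-0.77), clones in which ZEB1 was not called higher. Whether ZEB1 has a part in the level of any of these 3 genes was not tested. The observed over expected ratio of CpG was 0.81 in the GALNT3 window, 0.75 in that of GALNT12 and 0.82 in the one shown for GALNT14, against a median of 0.56 over all windows.

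The values are MAS5 signals, the brightness of a probe set on a linear scale, with array medians between 12.3 and 15.6. A probe set at or under the median of its array is called dim here. Signals are compared between clones within a probe set and never between genes. Replicate arrays correlated at 0.987 (45G3) to 0.995 (47C2). In 4 arrays (replicate 1 of parental, of 2C11 and of 16F8, and replicate 2 of 8G12) the poly-A controls, RNAs added to the samples, were 1.67-fold brighter than in the remaining 14. Of 10 markers of colorectal epithelium, 6 lay above the array median in all 18 arrays (EPCAM, CDH1, KRT8, KRT18, KRT19 and CDX2), KRT20 did in 15, and VIL1, CDH17 and CDX1 did in none. Of 6 fibroblast markers, COL1A1 was above the median in all arrays (187 to 358.5) and 4 were in none. Of 5 haematopoietic markers with a probe set none was above it in all arrays, and PTPRC, CD3E and CD14 were in none. LYZ was above it in 14 of 18 arrays (8.2 to 142.1 over all arrays) and HBB in 7 (6.4 to 24.5). In such bulk arrays fewer expressing cells and less RNA per cell cannot be told apart.

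GALNT3 was brightest in the parental line, with signals of 260.8 and 323.1 on its 2 arrays. It was lower in each of the 8 targeted clones, whose arrays did not overlap with the parental ones. The other wild-type clone, 16F8, gave 182.4 and 157.0. Next came the IDH1 R132H clone 2C11 with 125.0 and 135.6, and the IDH2 R140Q clones, 8G12 with 114.6 and 137.6 and 17H5 with 86.5 and 93.8. These 3 mutant clones lay between 30.9% and 44.6% of the parental mean of 291.95, and 16F8 at 58.1% of it. The R172K clone 45G3 gave 61.3 and 80.2 (24.2% of parental). The R132C clone 3A4 gave 31.1 and 32.1 (10.8%). In 2 clones GALNT3 was dim on both arrays. The R132H clone 2H1 gave 12.2 and 8.9, and the R172K clone 47C2 gave 8.9 and 7.8, so a fold has only a bound there. With each array's median as the floor, GALNT3 was at least 21.9-fold lower in 2H1 and at least 22.8-fold lower in 47C2 than in parental. In the order of the clone means the neighbours 2C11 and 8G12 overlapped, as did 2H1 and 47C2, and no other pair of neighbours did.

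**Figure D1:**
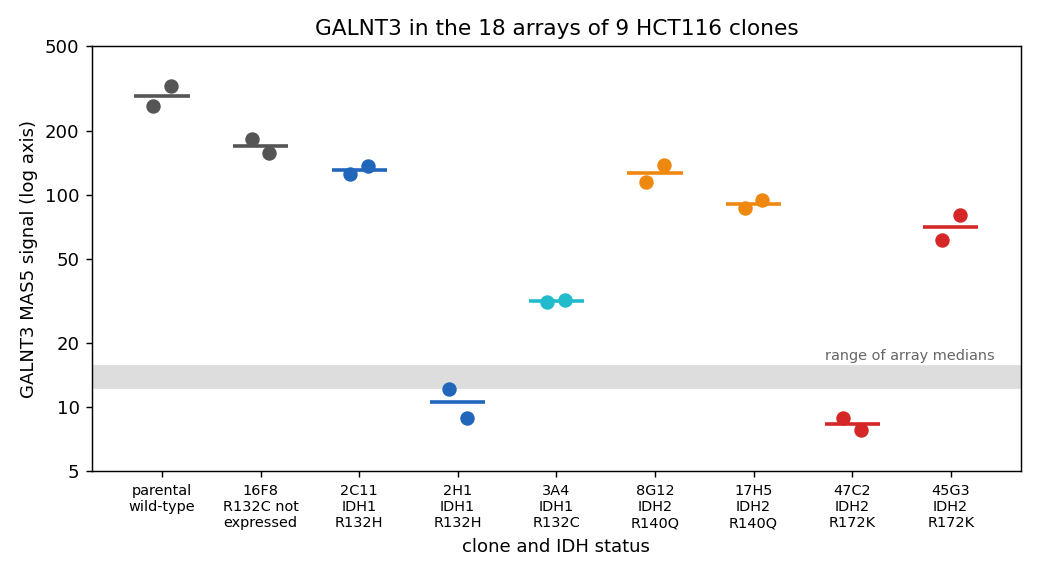
GALNT3 signal (log axis) on each of the 18 arrays, by clone with its IDH status; points are arrays, bars are means of 2 arrays and the grey band is the range of array medians. Parental arrays are highest at 260.8 and 323.1, and the 2H1 and 47C2 arrays lie in or below the band.

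Clones of the same labelled genotype differed in GALNT3. With the same floor, 2H1 was at least 9.83-fold lower than 2C11, the other R132H clone, and 47C2 at least 5.50-fold lower than 45G3, the other R172K clone. On the log2 scale of signal plus 2.2, used for all log2 differences here, the R140Q pair differed by -0.47 (17H5 minus 8G12). Against 16F8 in place of parental, GALNT3 was at least 13.3-fold lower in 47C2 and at least 12.8-fold lower in 2H1. The log2 difference from 16F8 was -2.34 in 3A4, -0.37 in 2C11 and -0.42 in 8G12. The 2 wild-type clones themselves differed in GALNT3 by -0.77 (16F8 minus parental). The second GALNT3 probe set was dim on all 18 arrays, at 0.8 to 8.3, and its clone means followed the first with a Pearson r of 0.90 over 9 clones. No difference is read from it.

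CDH1, which encodes E-cadherin of epithelial junctions, and ZEB1 varied across the same clones. CDH1 gave 1527.4 and 1596.1 in parental and 1254.8 and 1363.9 in 17H5. It was lowest in the clones with the least GALNT3, at 450.0 and 453.5 in 3A4, 462.1 and 493.7 in 2H1, and 524.3 and 515.9 in 47C2. In these 3 clones ZEB1 was higher than in parental (145.2 and 153.5), at 384.3 and 429.7 in 2H1, 443.0 and 416.5 in 3A4, and 325.1 and 285.3 in 47C2. This did not hold in 16F8, where GALNT3 and CDH1 were lower than in parental and ZEB1 was too, at 101.7 and 116.7, or in 17H5, with ZEB1 at 118.2 and 115.8. Over the 9 clone means GALNT3 correlated with CDH1 at r = 0.85 and with ZEB1 at -0.78. All genes of a clone share its arrays, and the part of CDH1 or ZEB1 in the GALNT3 levels was not tested.

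The genes most like GALNT3 were sought among the 2713 tested genes whose clone means spanned at least 1 log2 unit, by Pearson r over the 9 clone means. The 5 highest were SLAMF7 (0.95), MPZL2 (0.95), SAMD12 (0.95), SYT5 (0.94) and SYK (0.94). GALNT3 was dim in 2H1 and 47C2, so its log2 values there depend in part on the offset. That holds for these correlations and for those with CDH1 and ZEB1, which are descriptions without a test. SLAMF7 was dim in all clones but parental, where its mean signal was 15.45. It was thus among the tested genes only through the line in which GALNT3 was also highest, and no likeness is read from it. SYT5 had a mean signal of 19.05 in parental and lay under the array medians in 2H1 (5.25), 3A4 (6.75) and 47C2 (6.15). SYK, a tyrosine kinase, had a mean signal of 55.85 in parental and was dim in 2H1 (4.3), 3A4 (6.8) and 47C2 (1.75). SAMD12 was at 214.05 in parental, 54.2 in 2H1, 56.55 in 3A4 and 54.35 in 47C2. These 3 clones were also the lowest for MPZL2, whose mean signals were 120.15 to 160 there and 216.3 to 282.2 in the other 6. The 3 lowest were GNE (-0.94), ZDHHC14 (-0.93) and SNAP25 (-0.90), which was dim in parental with a mean signal of 6.05. GNE encodes the enzyme that starts sialic acid synthesis, and its mean signal rose from 355.35 in parental to 1064.45 in 2H1 and 941.45 in 47C2.

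**Figure D2:**
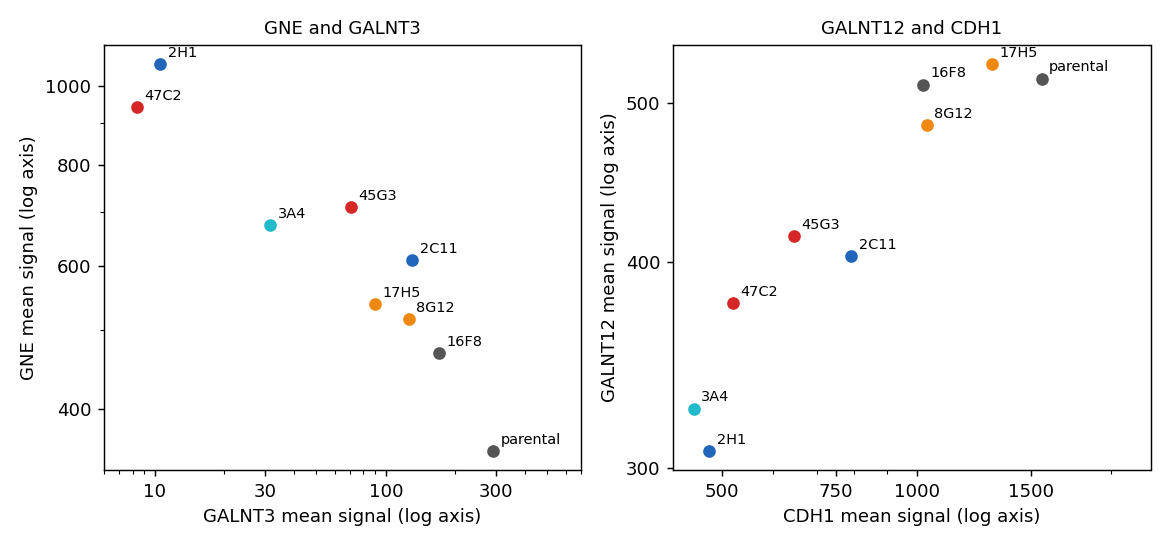
Left, mean GNE signal against mean GALNT3 signal, and right, mean GALNT12 signal against mean CDH1 signal, for the 9 clones (log axes, means of 2 arrays, coloured by IDH status as in the plot of GALNT3 by clone). GNE is highest where GALNT3 is lowest (2H1 and 47C2). GALNT12, drawn from its probe set of highest mean only, is low in the clones with low CDH1 (2H1, 3A4 and 47C2).

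The genes beside GALNT3 on chromosome 2 gave little to compare. Of the 5 nearest on each side with a probe set of their own, 1 was bright enough to be tested. That gene, COBLL1, had a log2 difference from parental of 0.08 in 47C2 (limma, adjusted p = 0.80) and -0.25 in 2H1 (adjusted p = 0.35). The other 9, among them 5 sodium channel genes of the SCN group, lay between 0.1 and 11.3 on every array.

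Of the other 9 members, 8 could be tested with limma in a fit over all 12531 genes that passed the filter on dim probe sets. GALNT4 could not be told apart from the read-through POC1B-GALNT4, to which both of its probe sets are also annotated. All 8 tested members differed among the 9 clones in the F test, where 52.3% of all tested genes did, so that count is read beside a high background. Adjusted p-values ran from 0.000245 for GALNT12 to 0.0352 for GALNT6. GALNT5 had the widest span of clone means, 2.87 on the log2 scale, followed by GALNT14 (1.27) and GALNT12 (0.78). The other 5 spanned 0.53 to 0.62. Leaving out 1 array lost the GALNT6 call for 8 of the 18 arrays (both of 2H1 and of 47C2, replicate 2 of 3A4, 16F8 and 17H5, and replicate 1 of 8G12; adjusted p up to 0.0921). The call was also lost for GALNT1 without 3A4 replicate 1 (0.0721), for GALNT2 without parental replicate 1 (0.0671) and for GALNT7 without 2C11 replicate 1 (0.0514). Each targeted clone was then compared with parental. The 8 comparisons share the 2 parental arrays, so a low or high parental value enters all of them.

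GALNT1 and GALNT2, the most widely expressed peptide transferases, lay higher in targeted clones than in parental. GALNT2 gave 296.6 and 307.3 in parental and 355.1 to 463.8 on the other 16 arrays, without overlap. It rose in all 7 mutant clones, by 0.41 (17H5) to 0.54 (2H1) with a standard error of 0.11 and adjusted p-values of 0.000909 to 0.0191. These are changes of 1.33-fold to 1.46-fold. In 16F8 the log2 difference was 0.30 with an adjusted p of 0.0522. The call in 17H5 was lost without parental replicate 1 (adjusted p = 0.0897), parental replicate 2 (0.0598) or 17H5 replicate 2 (0.159), and that in 45G3 without 45G3 replicate 1 (0.0575). The other GALNT2 probe sets above the median on all arrays were also higher than parental in all 8 clones, by 0.03 to 1.11, with the highest values in 3A4. With the mean of all GALNT2 probe sets the calls in 8G12 (0.28, adjusted p = 0.208), 17H5 (0.39, 0.102) and 47C2 (0.40, 0.0535) were lost. Those in 2C11, 2H1, 3A4 and 45G3 passed there. The 17H5 call was also lost with quantile normalization (0.0615).

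GALNT1 rose in 2 clones. It gave 911.3 and 1085.2 in parental, 1607.3 and 1465.5 in 3A4, and 1300.6 and 1364.8 in 2H1. The log2 difference was 0.62 ± 0.13 (SE) in 3A4 (adjusted p = 0.00105) and 0.42 ± 0.13 in 2H1 (0.0180). Of the other 6 clones 16F8 and 17H5 overlapped with parental, and 2C11, 8G12, 47C2 and 45G3 lay at 1113.8 to 1326.7 and passed no test. The 2H1 call was lost without parental replicate 1 (0.176), 2H1 replicate 1 (0.0584) or 2H1 replicate 2 (0.106). All 3 other probe sets of GALNT1 above the array median were higher than parental in 3A4, by 0.30 to 0.82.

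GALNT5, a transferase best known from the stomach and gut, set 1 clone apart. It gave 368.4 and 318.9 in 3A4, against 77.0 and 86.8 in parental and 42.4 to 82.1 on the arrays of 2C11, 2H1, 8G12, 17H5, 47C2 and 16F8. It rose 4.11-fold in 3A4, by 2.04 ± 0.39 (adjusted p = 0.000572), and this call passed without each of the 18 arrays in turn. 3A4 was also the highest clone in each of the 4 other GALNT5 probe sets. The second bright one gave 197.9 and 192.7 in 3A4 against 35.9 and 52.9 in parental. The remaining 3 were dim on 1 or both parental arrays, at 6.3 to 13.3, and gave 15.7 to 84.4 in 3A4. In 45G3 the 2 arrays disagreed, at 35.3 and 152.3. The second bright probe set did the same, at 28.9 and 77.3. On replicate 2 alone the log2 difference of 45G3 from parental was 0.88, and on replicate 1 alone it was -1.16, so no direction can be given for this clone. Replicate 1 of 45G3 had the lowest poly-A controls of all 18 arrays, and their part in this was not tested.

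GALNT14, which has been linked to O-glycans of death receptors, was low in 1 clone and high in others. It gave 67.6 and 73.2 in 2H1, 105.2 and 102.4 in parental, 178.1 and 168.6 in 8G12, and 163.9 and 162.4 in 47C2. The arrays of 16F8 lay at 139.8 and 144.1, above both parental ones (log2 difference 0.44, adjusted p = 0.145). GALNT14 rose against parental by 0.73 ± 0.21 in 8G12 (adjusted p = 0.0214) and 0.64 in 47C2 (0.0299). In 2H1 the log2 difference was -0.55 with an adjusted p of 0.0568. Both calls were lost without either parental array or either array of the clone itself, with adjusted p-values of 0.0629 to 0.107 in 8G12 and 0.0806 to 0.121 in 47C2. The replicates of 2C11 (165.9 and 115.0) and 45G3 (86.5 and 155.4) spread widely. GALNT6, the closest relative of GALNT3, lay between 97.4 and 183.6 and passed in no clone against parental. Its log2 differences ran from -0.18 in 3A4 to 0.42 in 8G12 (adjusted p = 0.0903).

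GALNT12 was the tested member that fell. It gave 537.2 and 497.3 in parental, 531.8 and 494.1 in 16F8 and 528.9 and 526.9 in 17H5, which overlapped. The signals were 281.6 and 333.2 in 2H1, 352.5 and 299.7 in 3A4, and 376.6 and 379.6 in 47C2, all below every array of those 3 lines. The means of 2C11, from 448.4 and 358.8, and of 45G3, from 448.9 and 380.9, lay between both sets. GALNT12 fell by 0.75 ± 0.13 in 2H1 (adjusted p = 0.000248), by 0.67 ± 0.13 in 3A4 (0.000607), by 0.45 ± 0.13 in 47C2 (0.0138) and by 0.36 ± 0.13 in 2C11 (0.0432). In 45G3 the log2 difference was -0.32 (0.0667), and in 16F8, 8G12 and 17H5 it lay between -0.09 and 0.03. The calls in 2H1 and 3A4 passed without each of the 18 arrays in turn. That in 47C2 was lost without parental replicate 1 (0.0844), 47C2 replicate 1 (0.0770) or 47C2 replicate 2 (0.0715). That in 2C11 was lost without either parental array, 2C11 replicate 2, or either array of 17H5 or 47C2, and without 2C11 replicate 2 the difference was -0.20 (0.372). On the second GALNT12 probe set, 2H1 (-0.67), 45G3 (-0.54) and 2C11 (-0.43) lay below parental, and 3A4 (-0.26) and 47C2 (-0.18) less so. With that probe set the call in 2H1 passed, and those in 3A4 (adjusted p = 0.349), 47C2 (0.572) and 2C11 (0.159) were lost. Over the 9 clones the first GALNT12 probe set correlated with CDH1 at r = 0.94, with ZEB1 at -0.97 and with GALNT3 at 0.80. These values hold for that probe set only. The second followed the first at r = 0.79, and its own correlation with CDH1, ZEB1 or GALNT3 was not computed. In the same fit ZEB1 rose in 2C11, 2H1, 3A4, 47C2 and 45G3 and fell in 16F8 (-0.45, adjusted p = 0.0368), and CDH1 fell in every targeted clone but 17H5. Their part in the GALNT12 levels was not tested.

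**Figure D3:**
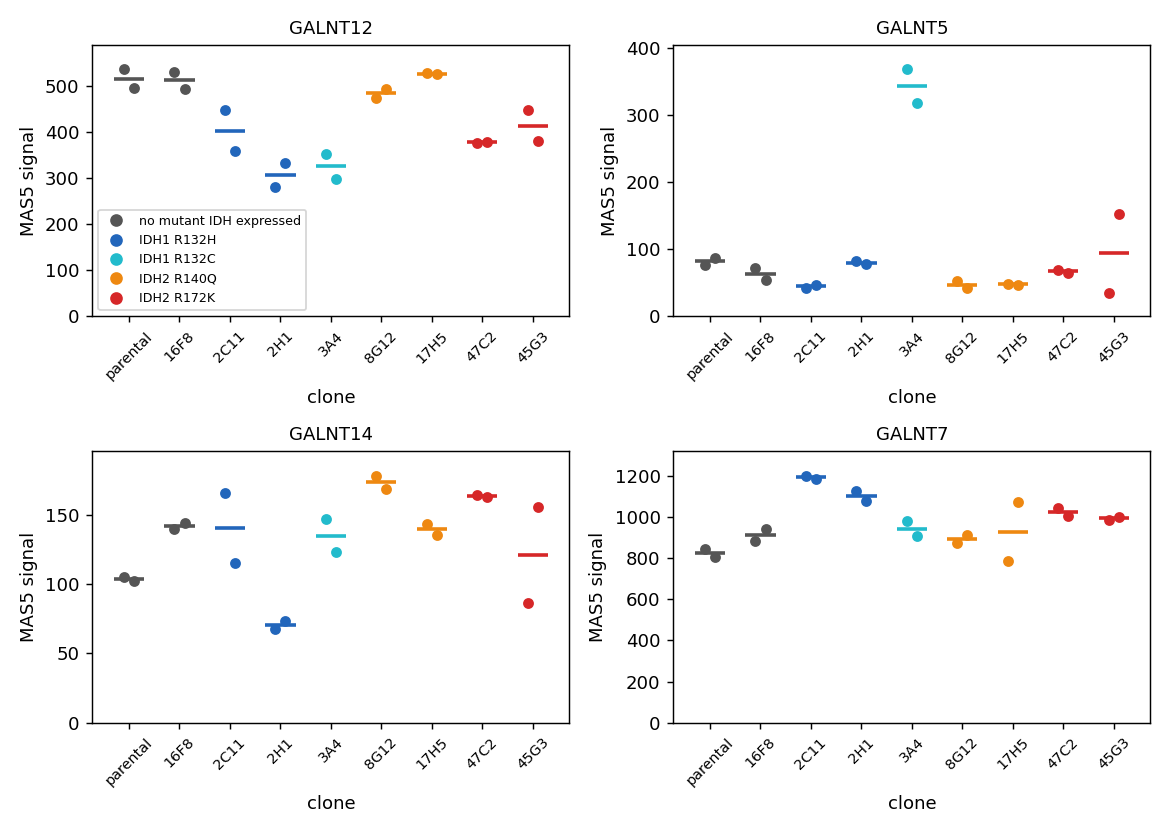
Signals of GALNT12, GALNT5, GALNT14 and GALNT7 on each array, by clone; points are arrays and bars are means of 2 arrays, coloured by IDH status. GALNT12 is lowest in 2H1 and 3A4, GALNT5 stands out in 3A4 (368.4 and 318.9) with 45G3 split, GALNT14 is lowest in 2H1, and GALNT7 is highest in 2C11.

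GALNT7 and GALNT10, the transferases that extend glycosylation on peptides already carrying a sugar, were higher than parental in several clones. GALNT7 gave 844.8 and 804.3 in parental, 1201.8 and 1185.5 in 2C11, and 1125.6 and 1077.0 in 2H1. It rose by 0.53 ± 0.11 in 2C11 (adjusted p = 0.00218), by 0.42 in 2H1 (0.00962) and by 0.31 in 47C2 (0.0488). The 2C11 call passed without each array in turn, and the 2H1 call was lost without parental replicate 2 (0.0594) or 2H1 replicate 1 (0.0711). The 47C2 call rested on its threshold. It was lost in 16 of 18 fits with 1 array left out, all but those without an array of 17H5, with adjusted p-values of up to 0.206, and its second probe set gave 0.04 there. That probe set gave 1.19 in 2C11 and 0.97 in 2H1.

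GALNT10 gave 488.7 and 446.4 in parental and 596.8 to 715.4 on the arrays of 2H1, 3A4, 8G12, 17H5, 47C2 and 45G3, without overlap. It rose in these 6 clones by 0.41 (45G3) to 0.54 (2H1) with a standard error of 0.11 and adjusted p-values of 0.00110 to 0.0194. In 16F8 and 2C11 the log2 difference was 0.22 in each, with adjusted p-values of 0.167 and 0.147. The call in 17H5 was lost without parental replicate 2 (0.126), 17H5 replicate 1 (0.0675) or 17H5 replicate 2 (0.118), and that in 45G3 without parental replicate 2 (0.0770) or 45G3 replicate 1 (0.0576). On the second bright probe set, 17H5 was at -0.01 and the other 5 clones at 0.40 to 0.63. With the mean of all 3 GALNT10 probe sets, 1 of them dim, all 6 calls were lost, with log2 differences of 0.21 to 0.46 and adjusted p-values of 0.0577 (2H1) to 0.475 (17H5), as was the difference among clones (0.455). The brighter of the 2 probe sets shared by GALNT4 and POC1B-GALNT4 gave 150.8 and 141.7 in parental, 175.0 and 186.5 in 2H1, and 113.1 and 141.5 in 47C2. It ranged from 113.1 to 197.2 over all arrays, with 16F8, 8G12 and 45G3 each on both sides of the parental arrays. The other lay at 5.3 to 16.6.

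The calls against parental are counted by clone beside the share of all tested genes called in the same direction. In 2H1 4 of 8 members were higher (14.7% of all genes) and 1 lower (16.2%). In 3A4 it was 4 higher (17.6%) and 1 lower (19.6%), and in 47C2 4 higher (14.2%) and 1 lower (13.8%). GALNT2 and GALNT10 were among the higher members in each of these 3 clones, joined by GALNT1 and GALNT7 in 2H1, GALNT1 and GALNT5 in 3A4, and GALNT7 and GALNT14 in 47C2. In 2C11 2 were higher (13.4%) and 1 lower (12.4%). In 8G12 3 were higher (11.4%) and 0 lower (7.03%), in 17H5 2 higher (6.88%) and 0 lower (4.96%), and in 45G3 2 higher (15.2%) and 0 lower (14.7%). In 16F8 limma called 0 members as higher (12.4% of all genes) and 0 as lower (9.56%), and 3 had an unadjusted p under 0.05. That makes 25 calls of a member in a clone, with all the higher calls in GALNT1, GALNT2, GALNT5, GALNT7, GALNT10 and GALNT14 and all the lower ones in GALNT12. The median log2 difference of the 8 members ran from 0.09 in 17H5 to 0.42 in 3A4, beside medians of all tested genes between -0.02 and 0.04.

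**Figure D4:**
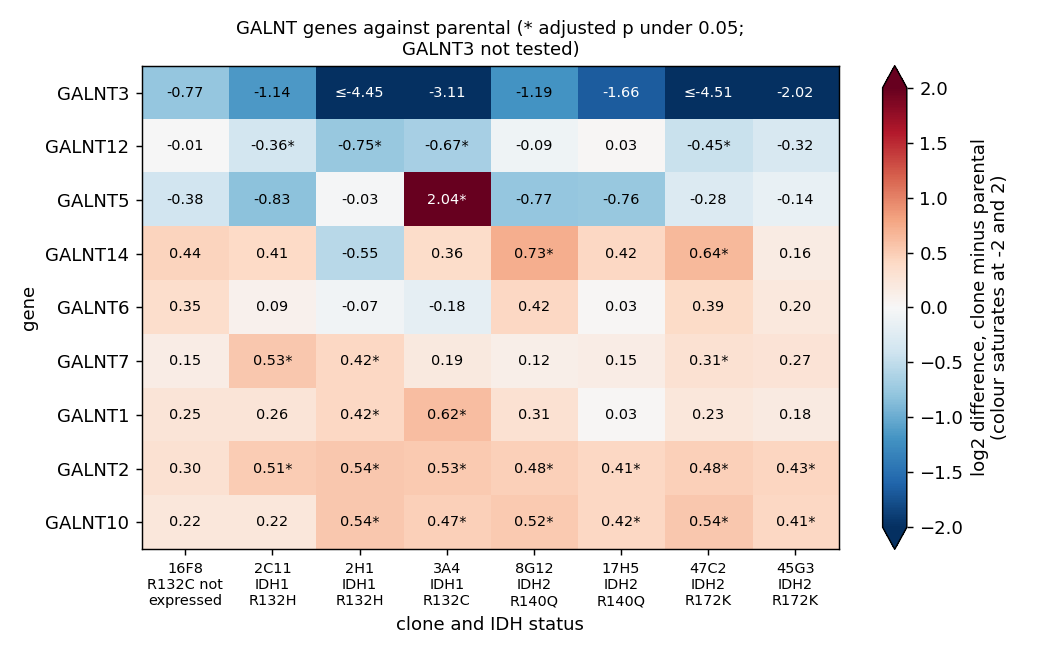
Log2 difference from parental (colour and printed value) of 9 GALNT genes in the 8 targeted clones; an asterisk marks an adjusted p under 0.05 in limma, ≤ marks a bound where GALNT3 was dim, GALNT3 was not tested and GALNT4 is not drawn. GALNT3 is below parental in every column, GALNT12 falls in 4 clones, and GALNT2 and GALNT10 are above parental in every column.

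Against 16F8, the other clone with wild-type IDH mRNA, there were 7 calls of a member in a mutant clone, 2 higher and 5 lower. GALNT12 was lower in 2H1 by -0.74 (adjusted p = 0.000631; 10% of all genes were lower there), in 3A4 by -0.65 (0.00108; 16% lower) and in 47C2 by -0.44 (0.0490; 4.12% lower). In 3A4, where 10.4% of all genes were higher, GALNT5 was higher by 2.42 (0.000189) and GALNT1 by 0.37 (0.0402). GALNT14 was lower in 2H1, at -0.99 (0.00349), and GALNT6 in 3A4, at -0.53 (0.0244). The higher levels of GALNT2, GALNT10 and GALNT7 did not pass in any mutant clone with this reference. Those of GALNT14 in 8G12 (0.28, adjusted p = 0.908) and 47C2 (0.20, 0.662) did not pass either. The same held for GALNT1 in 2H1 (0.17, 0.411). GALNT2 differed from 16F8 by 0.11 to 0.24 and GALNT10 by 0.00 to 0.32. For GALNT12, GALNT5 in 3A4 and GALNT14 in 2H1 the sizes changed little, or grew, with the other wild-type reference. No member passed in 2C11 (2.25% of all genes called), 8G12 (0.63%), 17H5 (8.53%) or 45G3 (2.14%).

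**Figure D5:**
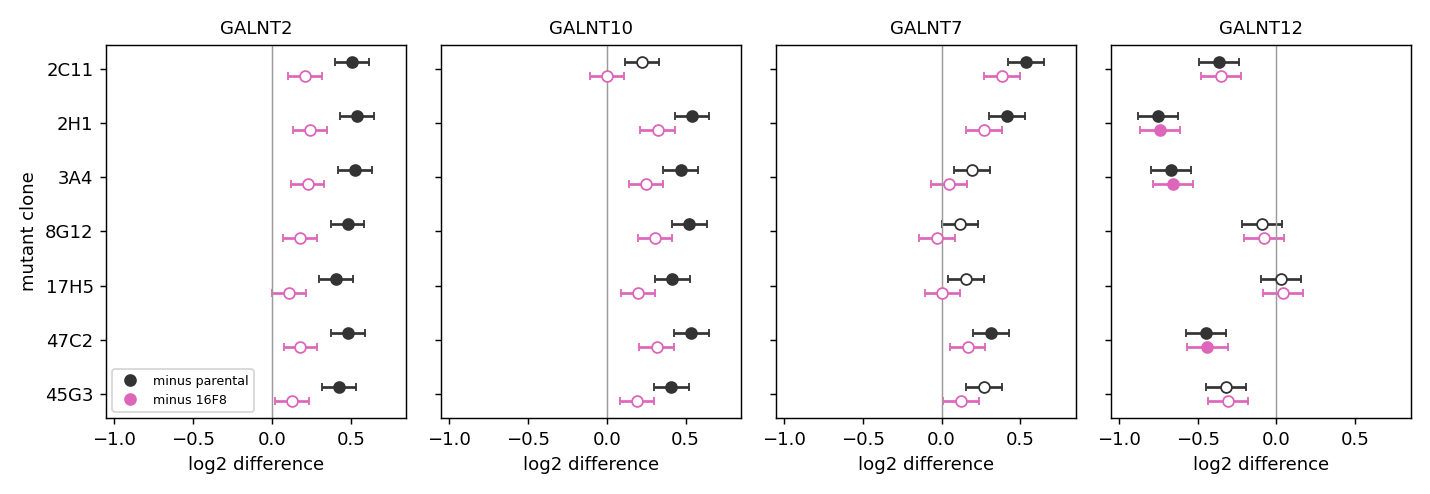
Log2 difference of the 7 mutant clones from parental (dark) and from 16F8 (pink) for GALNT2, GALNT10, GALNT7 and GALNT12; bars are standard errors from limma and filled points have an adjusted p under 0.05. For GALNT2 and GALNT10 no pink point is filled, whereas GALNT12 is filled for both references in 2H1, 3A4 and 47C2.

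Between clones of 1 genotype a single member call was made, GALNT14 in the R132H pair. It was lower in 2H1 than in 2C11 by a log2 difference of -0.95 ± 0.21 (adjusted p = 0.0125), where 2.47% of all genes were lower. The call was lost without 2C11 replicate 1 (-0.69, adjusted p = 0.174), 2H1 replicate 1 (0.121) or 2H1 replicate 2 (0.0615). In the R140Q pair (3.35% of all genes called) and the R172K pair (2.92%) limma called 0 members, and 2 and 1 had an unadjusted p under 0.05. GALNT12 differed by -0.39 between 2H1 and 2C11 (adjusted p = 0.101) and by -0.13 between 47C2 and 45G3 (0.656).

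With the clone as the replicate, limma called 0 members in each of 4 genotype comparisons. The 2 wild-type clones were set against all 7 mutant clones (0% of all genes called), against the 3 IDH1 clones (0.00798%) and against the 4 IDH2 clones (0%), and both mutant groups against each other (0.00798%). Unadjusted p-values under 0.05 were found for 2, 5, 2 and 2 members in that order, and for 862, 1923, 637 and 1651 of all genes. GALNT12 was lower in the IDH1 clones than in wild-type by -0.59 ± 0.17 (adjusted p = 0.222), and by -0.20 ± 0.16 in the IDH2 clones (0.891). With the 18 arrays in the fit and the clone as a random block, the IDH1 difference of GALNT12 had an adjusted p of 0.0408, in a fit that called 3.03% of all genes. The difference itself was the same, at -0.59. That fit takes its degrees of freedom from arrays although the clone is the replicate, so no genotype call is read from it. GALNT2 and GALNT10 were higher in mutant clones by 0.33 and 0.34, with an adjusted p of 0.682 for each.

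The rest of the O-glycan pathway was read from 4 lists. Of 10 other GalNAc transferases 2 were bright enough to test, and both differed among clones, where 52.3% of all tested genes did. GALNT18 rose against parental in 7 of 8 clones, by 0.49 (2C11) to 1.04 (16F8), and in 2H1 the log2 difference was 0.16. Its mean signal was 51.35 in parental and 108.2 in 16F8, so the higher level was not confined to mutant clones. GALNT11 fell in 2H1, by 0.48 (adjusted p = 0.00227).

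Among 18 enzymes that build, extend and cap the chains, 15 were tested and 9 differed among clones (52.3% of all genes did). In each clone 0 to 3 were higher and 2 to 4 lower than parental, with medians of -0.13 to 0.10. Of all tested genes 6.88% to 17.6% were higher and 4.96% to 19.6% lower in the same comparisons. GCNT3, the branching enzyme of mucin core structures, fell in all 8 clones. Its mean signal was 130.3 in parental, 19.2 in 2C11 and 58.95 in 17H5, with log2 differences from -2.67 to -1.14 and adjusted p-values of 5.09e-07 to 0.00532. The same held in 16F8, at 29.95 (-2.04). ST6GALNAC4, a sialyltransferase, also fell in all 8, by -0.47 to -1.10. ST6GALNAC3 fell in 47C2, by 1.26 (adjusted p = 0.000313), with a mean signal of 19.55 against 50.05 in parental, and it rose in 16F8 (0.90) and 8G12 (0.75). ST3GAL2 rose in 2H1 (0.48) and 3A4 (0.65). C1GALT1C1, the chaperone of the core enzyme, rose in 3A4 (0.47) and 16F8 (0.34).

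Of 14 genes of nucleotide sugar synthesis and transport, 12 were tested and 9 differed among clones, where 52.3% of all genes did. GNE rose in all 7 mutant clones, by 0.54 (8G12) to 1.58 (2H1) with adjusted p-values of 6.26e-07 to 0.0192, and in 16F8 the log2 difference was 0.40 (0.0721). GFPT1, the entry enzyme of the hexosamine pathway that feeds UDP-GalNAc, fell in all 8 clones, from 1089.1 in parental to between 506.6 and 744.6, with log2 differences of -0.54 to -1.10. SLC35A1, the Golgi transporter of activated sialic acid, fell in 7 of 8 clones (-0.38 to -0.62), with -0.28 in 17H5. NANS, a later step of sialic acid synthesis, fell in 7 of 8 (-0.30 to -0.62), with -0.20 in 8G12. UAP1L1, a relative of the UDP-sugar enzyme UAP1, rose in 7 of 8 (0.55 to 1.24), with 0.29 in 17H5. In each clone 1 to 4 of the 12 genes were higher and 2 to 5 lower, beside the shares of all genes given for the chain-building enzymes.

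Of 22 mucins and other densely glycosylated carriers, 20 had a probe set, 12 were tested and 6 differed among clones, a share near the 52.3% of all genes. MUC13, a membrane mucin of the gut, rose in 3A4 to 102.65 from 24.2 in parental (log2 difference 1.99, adjusted p = 0.00180). In the other 7 clones it fell to mean signals of 3.3 to 7.4, under the array medians, so no fold is given there. CD55, a complement regulator on a mucin-like stalk, fell in all 8 clones, by -0.29 in 3A4 to -1.30 in 2C11. SDC1, a syndecan, rose in 7 of 8, by 0.50 to 0.86, with 0.21 in 17H5. LRP8, a lipoprotein receptor with an O-glycosylated domain, rose in all 8, by 0.24 to 0.60. MUC3A fell in 2H1 (-0.65) and 3A4 (-0.77).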

How the data were processed

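The deposited values are linear microarray intensities, which the submitters' processing notes credit to MAS5. Its version is not given in the sources used here. That the arrays had been scaled to 1 level was read from the values, not from the labels. Their mean without the extreme values was 150.014 to 150.017 on every array. The values were used as log2(signal + 2.2), where 2.2 is the 25th percentile of all values. A gene stood for by its probe set of highest mean was tested where some clone reached the array median on both of its arrays (12531 of 19775 genes with a probe set of 1 symbol). Of 54675 probe sets, 41091 had 1 symbol, 1801 several and 11721 none, and 62 were controls. Linear models used limma 3.58.1 in R 4.3.3 (lmFit, eBayes with trend, Benjamini-Hochberg, threshold 0.05), on 18 arrays for clones (9 residual degrees of freedom) and on 9 clone means for genotypes (7 or 6), and were tested on simulated data. Errors of log2 differences are standard errors. Values of the arrays are given singly, and their number, 2 per clone, limits the precision. The labels call the replicates biological and do not say whether they were separate cultures, so p-values measure the spread between these arrays. Replicate numbers were not used to pair the arrays in the main fits. Figures used Python 3.11.15 and matplotlib 3.10.9.

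The members and lists were chosen with earlier results of these data known. Named are the 10 members in every clone, the 5 genes most and 3 least like GALNT3, up to 5 tested genes of each list by F test, the 5 nearest genes on each side of GALNT3, and CDH1 and ZEB1. Alternatives changed the offset, the filter, the normalization, the choice of probe set, the variance model, the reference clone and the blocks, added a poly-A term, and left out each array or clone.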

Additional observations from a re-analysis of the deposited data

Results flagged for a closer look

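In the 7 mutant clones GALNT5 was far higher in 3A4 than in the next clone, a gap of 0.721 of the whole range of clone means. GALNT10 was lowest in 2C11, apart from the other 6 mutant clones by 0.588 of the range of all 7. On the second bright GALNT10 probe set 17H5 was lower, with a mean signal of 98.2 against 108.3 in 2C11. Of 16 groups of clone means examined in this way 2 stood out, and chance flags about 1 in 20 groups.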

How the results depend on the processing

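Of 8 members that differed among the clones, 4 passed with the probe set of highest variance for each gene, where 6 members were tested, and 7 or 8 under every other alternative run. The 25 calls against parental became 9 with that probe set, 7 with 16F8 as reference, 18 with the mean of both wild-type clones, 18 with the mean of all probe sets, 24 with the replicate block and 30 with a poly-A term, and lay between 17 and 31 with 1 array left out (17 without parental replicate 2, 31 without either array of 45G3). The 1 call between clones of a genotype became 3 with the poly-A term and lay between 0 and 4 with 1 array left out: 0 without 2C11 replicate 1 or either array of 2H1, 3 without 45G3 replicate 1 and 4 without 45G3 replicate 2. The 0 genotype calls became 1 with the clone as a random block and 1 with the replicate block added to it. Both of these fits take their degrees of freedom from the 18 arrays and not from the 9 clone means. For these changes the cause was not tested, except that fewer members were tested with the probe set of highest variance. Replicate numbers gave 36 pairs of clones whose deviations correlated at -0.351 to 0.385. The sign was not shared by all pairs, so no pairing by number was assumed, though a range alone does not settle it. The replicate block changed 1 member call, GALNT7 in 47C2 (adjusted p = 0.0535).

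GALNT3 was dim in 47C2, where the measured result is the bound of at least 22.8-fold lower than parental. Its difference on the log2 scale with an offset, which is set in part by that offset, was -4.80 with 2.2, -3.65 with an offset of 16, -2.55 with 50, -2.96 as the mean of both probe sets, -1.13 on the second probe set, dim on all arrays, -4.02 against 16F8 and -4.41 against the mean of both wild-type clones. Directions turned for GALNT1 in 3A4 with the dim probe set of highest variance (-0.14), GALNT3 in 2C11 on its dim probe set (0.13), and GALNT5 in 45G3 against 16F8 (0.24), against the mean of both wild-type clones (0.0488) and without 45G3 replicate 1 (0.88, with -1.16 without 45G3 replicate 2). Of 26 member calls 14 passed without each of the 18 arrays in turn.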
